A study of Mus musculus with 6 samples.

Results

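The hepatic carboxylesterases described here are 10 genes, Ces1b, Ces1c, Ces1d, Ces1e, Ces1f, Ces1g, Ces2a, Ces2e, Ces3a and Ces3b, taken by name from 54532 genes of a liver count table that holds 20 carboxylesterase genes. They were picked on the difference between the groups compared here, around the low level of Ces3b in Trem2-deficient liver. Each difference between the groups is therefore given for these 10 genes as a description, without a test. Bulk RNA of 6 livers was sequenced, 3 labelled Trem2 KO and 3 labelled control (WT, wild type). The mice were male littermates that began a high-fat diet at 8 weeks of age and stayed on it for 8 weeks, so both groups share the diet. Trem2 encodes a lipid-sensing receptor of macrophages. The sources used here give neither the deleted exons nor the strain, nor whether the 3 libraries of a group are 3 animals. Where they are not, the spread and the p-values describe only these samples.

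Carboxylesterases cleave ester bonds in drugs, in acylglycerols and in other lipids, and most of them are held in the lumen of the endoplasmic reticulum of hepatocytes. In mouse, where tandem duplication gave many more copies than in human, several of them act on stored triglyceride, whose fatty acids can then be burned or rebuilt into very-low-density lipoprotein (VLDL). Ces1c differs from most others in being secreted into the blood, where it makes up much of mouse plasma esterase activity.

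All 20 genes lay on chromosome 8 (mm10) in 2 clusters 11.2 Mb apart. The first, on the minus strand from 93020214 to 93535830, held the Ces1 genes and Ces5a, with 6 of the 10 genes described. The second, on the plus strand from 104734003 to 105150109, held the Ces2 and Ces3 genes and Ces4a, with the other 4. Ces3b (ENSMUSG00000062181, 105083753 to 105093929) began 25.34 kb after the end of Ces3a (ENSMUSG00000069922, 105048601 to 105058413). In GENCODE vM21 both have 13 exons and a coding sequence of 1716 bases, and these were 95.3% identical over the aligned bases, the closest of all pairs among the 10. Ces1b and Ces1c followed with 91.2%, then Ces2a and Ces2e with 83.3%.

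The closeness of Ces3a and Ces3b matters because reads had to be told apart to count them. Their first 90 coding bases, which differ at 15 places shown in capitals, are given as a stretch where a read can be assigned to one gene. They differ more than the whole coding sequences, which were 95.3% identical. They therefore do not show the shared stretches that are counted below them.
Ces3a: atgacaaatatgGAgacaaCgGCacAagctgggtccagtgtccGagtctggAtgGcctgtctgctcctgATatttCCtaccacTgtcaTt
Ces3b: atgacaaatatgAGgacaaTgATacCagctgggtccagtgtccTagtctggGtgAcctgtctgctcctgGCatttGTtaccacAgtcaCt
Of all distinct windows of 50 bases in the annotated Ces3b transcripts, 26.2% also occurred in Ces3a and in no other gene, and 7.04% of windows of 100 bases were shared. For Ces2a the shared part was 17.3% at 50 bases, most of it with the gene model Gm7208, and for Ces1c and Ces1b it was 13.0% and 11.6%. The remaining 5 genes shared between 0.903% and 3.30%. The sources used here name neither the treatment of reads that match several genes nor the use of strand. By windows of 50 bases the counts of Ces3a and Ces3b therefore carry the most uncertainty among the 10. At 100 bases the shared part of Ces2a, 8.13%, was above the 7.04% of Ces3b and the 6.88% of Ces3a. Of the 10, only Ces3a overlapped another annotated gene, the antisense Gm45724, by 1 exonic base.

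RefSeq (GRCm38.p6) gave a promoter, 250 bases before to 50 after the start site, for 7 of the 10 genes. Those of Ces3b, the gene with the largest difference among the 10, of Ces2a and of Ces1b, which was fitted in the other direction, are printed so that they can be compared. Both strands were searched for 6 motifs: TATAAA (the TATA motif of core promoters), GTTAAT (HNF1 core), CAAAGTCC (HNF4 core), TGTTTAC (FOXA), TTCNNNGAA (STAT5) and TTGCG (C/EBP core). Capitals mark the matches, which do not overlap each other.
Ces3b, chr8:105083505-105083804, plus strand: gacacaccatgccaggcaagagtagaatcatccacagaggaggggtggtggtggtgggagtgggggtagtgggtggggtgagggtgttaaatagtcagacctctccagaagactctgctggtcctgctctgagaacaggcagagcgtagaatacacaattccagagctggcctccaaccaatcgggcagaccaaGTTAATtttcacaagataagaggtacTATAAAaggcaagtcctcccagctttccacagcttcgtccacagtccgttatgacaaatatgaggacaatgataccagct
Ces2a, chr8:104733753-104734052, plus strand: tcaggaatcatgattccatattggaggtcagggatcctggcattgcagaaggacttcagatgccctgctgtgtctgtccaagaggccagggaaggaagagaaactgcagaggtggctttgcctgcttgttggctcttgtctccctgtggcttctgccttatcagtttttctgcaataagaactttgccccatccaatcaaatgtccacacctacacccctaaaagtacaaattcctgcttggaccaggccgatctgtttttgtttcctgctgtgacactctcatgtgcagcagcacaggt
Ces1b, chr8:93079968-93080267, minus strand: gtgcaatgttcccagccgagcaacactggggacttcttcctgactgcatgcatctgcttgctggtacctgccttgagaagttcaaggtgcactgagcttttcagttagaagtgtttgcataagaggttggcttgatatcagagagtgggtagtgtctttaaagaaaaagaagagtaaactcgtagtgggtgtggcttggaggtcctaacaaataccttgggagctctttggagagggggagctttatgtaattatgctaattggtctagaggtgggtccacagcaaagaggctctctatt
The Ces3b promoter held GTTAAT beginning 56 bases and TATAAA beginning 30 bases before the start site. GTTAAT was in 1 of the 7 promoters and in 7.13% of 32544 mouse promoters of the same length. TATAAA was in 2 of 7 (Ces3b and Ces1g) and, on either strand, in 13.6%. Its match in Ces3b read in the direction of the gene, and that in Ces1g on the opposite strand. None of the 7 held the other 4 motifs, which occur in 1.43% (CAAAGTCC), 3.66% (TGTTTAC), 8.33% (TTCNNNGAA) and 17.5% (TTGCG) of all promoters. These are matches of letters in one window and not evidence of binding.

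Levels of different genes were compared in the authors' FPKM, fragments scaled to gene length and to a library size set by the authors. In the livers of both genotypes the family was dominated by Ces1c, the plasma esterase (ENSMUSG00000057400, 93099015 to 93131283), and Ces3a. Ces1c stood at 637, 715 and 796 FPKM in KO replicates 4, 5 and 6, against 1072, 805 and 902 FPKM in WT replicates 1, 2 and 3. Ces3a stood at 558, 581 and 548 FPKM in KO livers, against 1038, 807 and 643 FPKM in WT livers. Together they held between 64.7% and 68.3% of the summed FPKM of the 10 genes in KO livers and between 64.5% and 67.4% in WT livers, ranges that overlap.

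**Figure D1:**
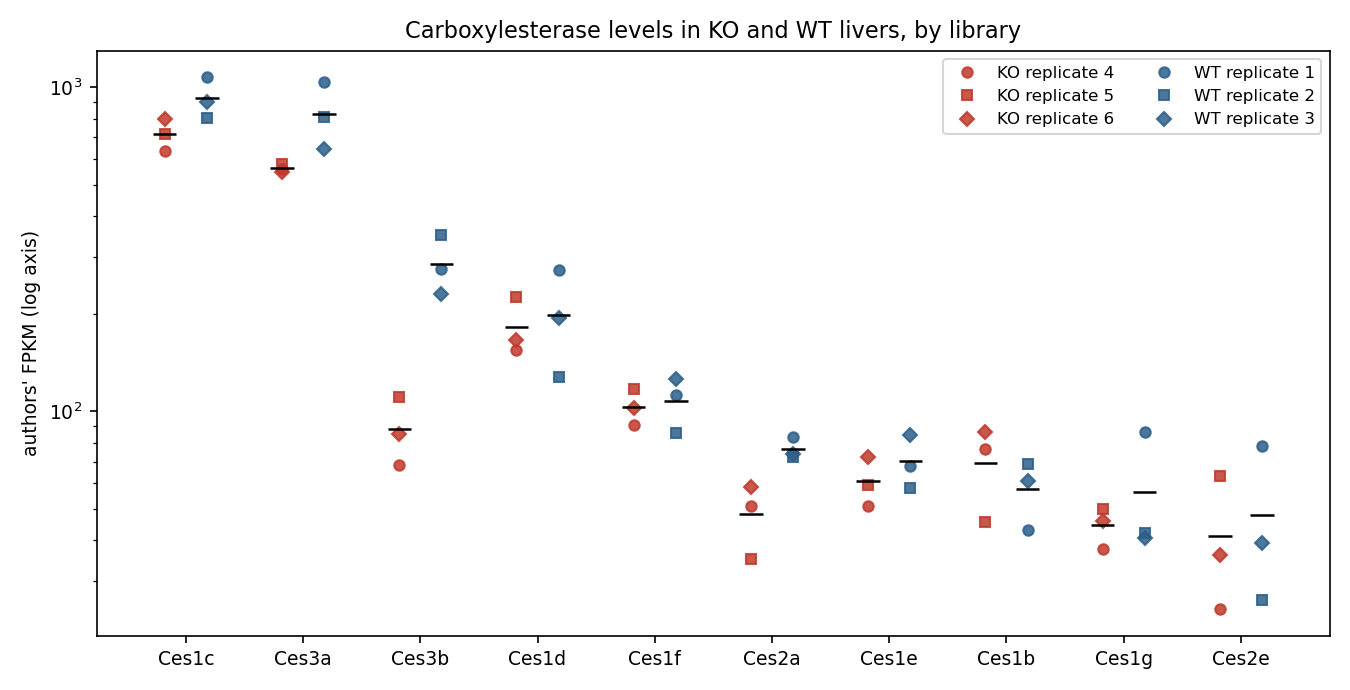
Authors' FPKM (log axis) of the 10 carboxylesterase genes, ordered by their WT mean, in each of 3 KO and 3 WT libraries (points), with group means (bars). The 3 KO points of Ces3b, 68.5 to 110 FPKM, lie below the 3 WT points, 230 to 351 FPKM, while those of Ces1d, Ces1f and Ces2e overlap.

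The order of the levels by mean differed between the groups in the place of several genes, Ces3b among them. Ces2a had rank 6 in WT and rank 8 in KO livers, and Ces1b rank 8 in WT and rank 6 in KO livers. In WT livers Ces3b was the third gene by mean, at 285 ± 61.1 FPKM (SD, n = 3), and lay above Ces1d in 3 of 3 libraries, although their ranges overlapped. In KO livers it was the fifth, at 88.0 ± 21.1 FPKM (SD, n = 3), after Ces1d at 182 ± 37.8 FPKM and Ces1f at 103 ± 13.2 FPKM. There the ranges of Ces3b and its neighbours Ces1f and Ces1b overlapped, so these are not separated. Ces1c and Ces3a were separated from each other in KO livers only, where all 3 Ces1c values lay above all 3 of Ces3a. Below Ces1f the remaining genes, Ces2a, Ces1e, Ces1b, Ces1g and Ces2e, had group means between 41.2 and 69.4 FPKM in KO livers and between 47.9 and 76.7 FPKM in WT livers, with ranges that overlapped from each to the next.

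Summed over the 10 genes, the level was 1915 ± 144 FPKM in KO livers and 2656 ± 411 FPKM in WT livers (SD, n = 3 each), a log2 difference of −0.47. The KO libraries ran from 1749 to 2000 FPKM and the WT libraries from 2394 to 3129 FPKM, without overlap. Of this summed difference Ces3a made up 36.1%, Ces1c 28.5% and Ces3b 26.7%, so most of it lay in 3 genes. Their order changed with the libraries used. Without WT replicate 1 Ces3b made up 40.2%, Ces3a 32.3% and Ces1c 27.4%, and without WT replicate 2 Ces3b made up 19.5%. Ces3b was 3.91%, 5.52% and 4.26% of the sum in KO replicates 4, 5 and 6, against 8.80%, 14.4% and 9.60% in WT replicates 1, 2 and 3. Its share separated the groups, whereas the share of Ces3a averaged 29.5% in KO and 31.0% in WT livers, with overlap.

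**Figure D2:**
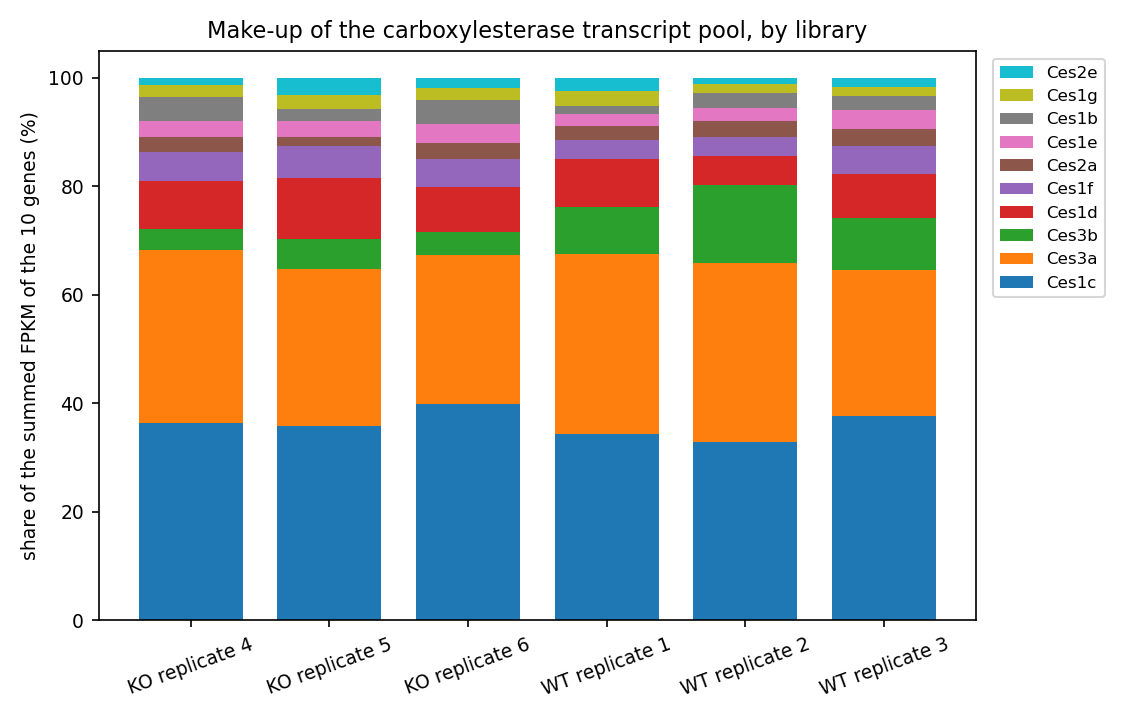
Share of the summed FPKM of the 10 genes (percent) held by each gene in every library. Ces1c and Ces3a fill about the same part in all 6 bars, while the Ces3b band is 3.91% to 5.52% in KO and 8.80% to 14.4% in WT livers.

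Differences between the groups were taken from CPM, read counts over the TMM-scaled library size, which suit 1 gene across libraries, with the log2 fold change of KO over WT and its standard error (SE) from edgeR's fit across 13693 genes. Ces3b, once named Es31-like, had 178, 292 and 221 CPM in KO replicates 4, 5 and 6, against 683, 908 and 595 CPM in WT replicates 1, 2 and 3. Every KO value lay far below the lowest WT value, and the means were 230 ± 57.6 CPM in KO and 729 ± 162 CPM in WT livers (SD, n = 3 each). The fitted log2 fold change was −1.66 (SE 0.29), and 0.592% of the tested genes had a lower one. Per 100 Ces3a counts of the same library there were 12.0, 18.6 and 15.2 Ces3b counts in KO livers, against 25.9, 42.5 and 34.9 in WT livers. This ratio needs no scaling between libraries, and its values did not overlap between the groups. Ces3b was picked for its low KO level, so the ratio is a description and no separate support. Both genes carry the uncertainty of read assignment given above.

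Ces3a was lower in the KO livers to a smaller extent. It had 1487, 1574 and 1457 CPM in KO replicates 4, 5 and 6, against 2636, 2138 and 1703 CPM in WT replicates 1, 2 and 3 (log2 −0.52, SE 0.26). The KO values lay close together and below all WT values, but the lowest WT library, replicate 3, was near them.

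Ces2a (ENSMUSG00000055730, 104734003 to 104741634), of the second subfamily, had 122, 85.5 and 139 CPM in KO replicates 4, 5 and 6, against 191, 172 and 176 CPM in WT replicates 1, 2 and 3 (log2 −0.64, SE 0.24). The 3 WT values were close to each other, and KO replicate 5 was the lowest library. Its neighbour by sequence, Ces2e, did not follow it, with 67.2, 176 and 98.2 CPM in KO livers, against 204, 71.5 and 107 CPM in WT livers (log2 −0.16, SE 0.47). Ces2e was high in KO replicate 5 and WT replicate 1 and low elsewhere, so the groups overlapped, and without WT replicate 1 the log2 fold change was 0.35.

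Ces1c, the secreted plasma esterase, had 1500, 1712 and 1873 CPM in KO replicates 4, 5 and 6, against 2407, 1887 and 2115 CPM in WT replicates 1, 2 and 3. Its log2 fold change was −0.33 (SE 0.24), or 0.10 with libraries scaled to hepatocyte markers (−0.30 relative to the median of all genes in that fit), and the highest KO and the lowest WT library lay next to each other. Ces1b (ENSMUSG00000078964), its nearest relative by sequence, was the only one of the 10 fitted higher, with 152, 92.0 and 172 CPM in KO livers, against 81.5, 136 and 121 CPM in WT livers (log2 0.30, SE 0.31). KO replicate 5 lay below WT replicates 2 and 3, so the groups overlapped.

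In the other 4 Ces1 genes, among them those tied to triglyceride turnover, KO and WT values overlapped. Ces1d (ENSMUSG00000056973), the triacylglycerol hydrolase that supplies fatty acids for VLDL in mouse, had 372, 550 and 397 CPM in KO replicates 4, 5 and 6, against 625, 306 and 464 CPM in WT replicates 1, 2 and 3 (log2 −0.08, SE 0.32). Ces1g (ENSMUSG00000057074), whose loss in mice raises blood and liver lipid, had 91.2, 123 and 111 CPM in KO livers, against 199, 102 and 97.9 CPM in WT livers (log2 −0.29, SE 0.32). For Ces1g only WT replicate 1 stood high, and without that library its log2 fold change was 0.12. Ces1f, also called triacylglycerol hydrolase 2, had 302, 396 and 340 CPM in KO livers, against 356, 284 and 417 CPM in WT livers (log2 −0.03, SE 0.24). Ces1e, the egasyn that holds beta-glucuronidase in the endoplasmic reticulum, had 113, 134 and 160 CPM in KO livers, against 144, 128 and 186 CPM in WT livers (log2 −0.17, SE 0.24). Ces1d and Ces1f also turned in direction with 1 library left out, Ces1d to 0.19 without WT replicate 1 and Ces1f to 0.082 without WT replicate 3. Ces1e turned only with libraries scaled to the hepatocyte markers, to 0.25, or −0.14 relative to the median of all genes in that fit.

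**Figure D3:**
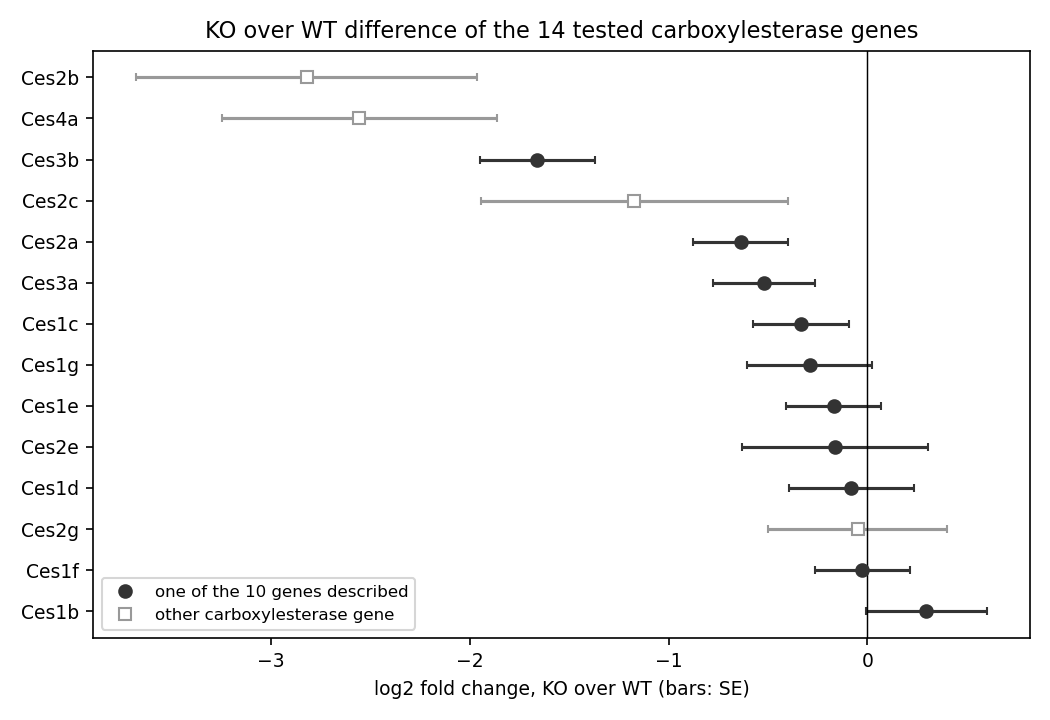
Log2 fold change of KO over WT with its SE for the 14 carboxylesterase genes that entered the fit, the 10 described (filled circles) and 4 others (open squares). Ces3b, at −1.66, is the lowest of the 10, and Ces1b, at 0.30, is the only one of them above 0.

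Counted over the family, 9 of the 10 genes were fitted lower in the KO livers, where 50.9% of all tested genes were, and the median log2 fold change was −0.23, against −0.01 over all tested genes. With libraries scaled to 20 hepatocyte markers, which moved the median of all genes to 0.39, 3 of the 10 (Ces3b, Ces3a and Ces2a) were below 0 and 7 were below that median. Without WT replicate 1 the count of 9 was 6, without KO replicate 4 it was also 6, and without both it was 5. In 4 of the 10 (Ces1c, Ces2a, Ces3a and Ces3b) all KO libraries lay below all WT libraries, as in 5.73% of tested genes, and in 0 of 10 all KO libraries lay above, as in 8.12%. A log2 fold change of −1 or lower was fitted for 1 of 10, Ces3b, and for 2.69% of tested genes. At an adjusted p under 0.05 edgeR called 0 of the 10, with 0.0146% of tested genes called in either direction (2 higher and 0 lower). DESeq2 called 1 of the 10 as lower, Ces3b, and 0.467% of tested genes. At an unadjusted p under 0.05 edgeR had 735 higher and 440 lower genes. Since the genes were picked on this contrast, nothing is read from these counts.

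The other 10 carboxylesterase genes were scarce or unmeasured. Ces4a, the last gene of the second cluster, had 9, 37 and 11 counts in KO replicates 4, 5 and 6, against 215, 50 and 65 counts in WT replicates 1, 2 and 3. Its log2 fold change was −2.56 (SE 0.69), not called by edgeR (adjusted p = 0.400) but called by DESeq2 (adjusted p = 0.0182). WT replicate 1 stood far above the other libraries, and without it the log2 fold change of Ces4a was −1.52 and the DESeq2 adjusted p 0.373. The DESeq2 call was also lost without KO replicate 4 (adjusted p = 0.204) and without KO replicate 6 (adjusted p = 0.163). Ces2b had 6, 1 and 2 counts in KO livers, against 42, 16 and 20 counts in WT livers (log2 −2.82, SE 0.86, edgeR adjusted p = 0.435), and entered the fit only through its WT counts. Both genes were lower in every KO library than in any WT library, as were 5.73% of tested genes. For Ces2b, kept in the fit by its WT counts, nothing is read from this. Ces2c, a liver triglyceride lipase in mouse, had 12.4, 22.6 and 7.16 CPM in KO livers, against 69.7, 7.17 and 18.8 CPM in WT livers, where WT replicate 1 alone was high (log2 −1.17, SE 0.77, edgeR adjusted p = 0.668). Ces2g had a log2 fold change of −0.05 (SE 0.45, edgeR adjusted p = 0.974). Without WT replicate 1 the log2 fold changes of Ces2c and Ces2g turned to 0.12 and 0.61. That of Ces2g also turned without KO replicate 4 (0.054) and without KO replicate 6 (0.11). Ces1a, Ces2h and Ces2d-ps had at most 15 counts in any library and did not enter the fit. Ces1h, Ces2f and Ces5a had 0 counts in all 6, which allows up to 0.139 to 0.272 CPM per library (3 counts, counting error only).

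**Figure D4:**
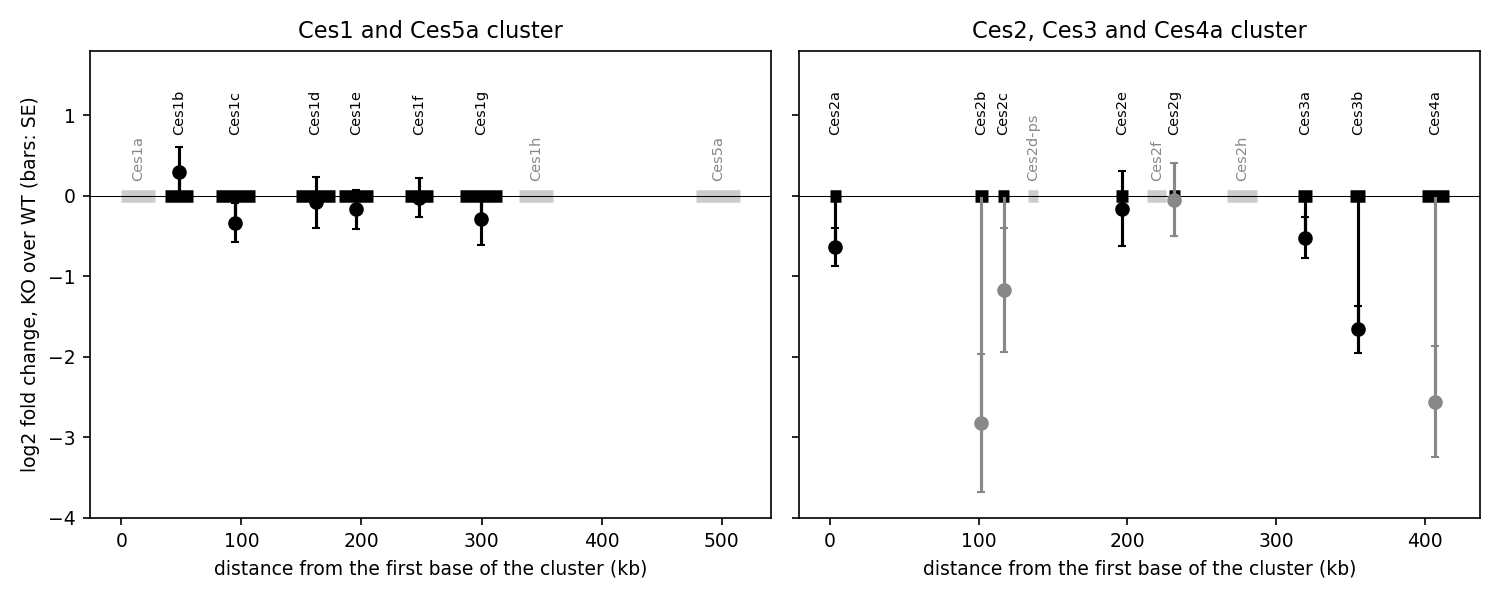
Log2 fold change of KO over WT with its SE along the 2 clusters, by distance in kb from the first base of each (black: the 10 genes described, grey: others tested, pale bars: genes not tested). The 3 lowest values, of Ces2b, Ces4a and Ces3b at −2.82, −2.56 and −1.66, lie in the second cluster, next to genes such as Ces2e at −0.16. Without WT replicate 1 these 3 values were −2.21, −1.52 and −1.71. Ces2b entered the fit only through its WT counts.

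Within the second cluster low values and values near 0 stood side by side. Around it, 21 genes of other families lying within 250 kb of its ends or inside it were tested, of which 12 were fitted lower and 9 higher, with a median log2 fold change of −0.09. Among them 0 passed in edgeR, the lowest adjusted p being 0.407.

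Among the genes of other families whose log2 CPM over the 6 libraries was most like that of Ces3b were Hmgb1, Eif4a2, Dock4 and Hp1bp3, with Pearson's r between 0.987 and 0.992. They were taken for the highest r among 7030 protein-coding genes with a mean of at least 10 CPM, so the r are a description. Hmgb1, an abundant chromatin protein, had 50.6, 55.8 and 53.9 CPM in KO replicates 4, 5 and 6, against 80.1, 83.5 and 74.1 CPM in WT replicates 1, 2 and 3 (log2 −0.57, SE 0.18, edgeR adjusted p = 0.437). Eif4a2, an RNA helicase of translation initiation, had 147, 182 and 173 CPM in KO livers, against 234, 260 and 225 CPM in WT livers (log2 −0.52, SE 0.20, edgeR adjusted p = 0.539). Within the family the r with Ces3b was 0.82 for Ces3a, 0.72 for Ces1c, 0.70 for Ces2a and between −0.44 (Ces1b) and 0.33 (Ces1g) for the others. Both groups enter these r, so they largely follow the difference between the groups on which the genes were picked.

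Genes known to regulate carboxylesterase or hepatocyte genes had log2 fold changes from −2.08 (Onecut1) to 0.63 (Nr1i2). Of 25 tested, 18 were fitted lower and 7 higher, with a median log2 fold change of −0.09, and edgeR called 0. Onecut1, a hepatocyte transcription factor, had 2.54, 8.38 and 2.69 CPM in KO livers, against 22.7, 18.8 and 17.5 CPM in WT livers (log2 −2.08, SE 0.47, edgeR adjusted p = 0.370, DESeq2 adjusted p = 0.00375). With WT replicate 1 left out the DESeq2 adjusted p of Onecut1 was 0.0572, and it was 0.0733 and 0.0527 with KO replicate 4 and KO replicate 6 left out in turn. Foxa1, a pioneer factor of liver, had a log2 fold change of −0.79 (SE 0.28, edgeR adjusted p = 0.516).

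Other lipid and ester hydrolases were divided, with 17 of 28 fitted higher, 11 lower, a median of 0.17 and 0 called by edgeR. Afmid, a formamidase of tryptophan breakdown, had a log2 fold change of −0.92 (SE 0.30, edgeR adjusted p = 0.451). Abhd6, a monoacylglycerol lipase, had a log2 fold change of 0.72 (SE 0.26, edgeR adjusted p = 0.521). Of 17 genes for folding and retention in the endoplasmic reticulum, where most carboxylesterases reside, 13 were fitted lower and 4 higher (median −0.22, 0 called). Ero1l and Hsp90b1, which serve disulfide formation and folding there, had −0.64 (SE 0.38) and −0.48 (SE 0.29), at edgeR adjusted p of 0.658 for both. Of 18 genes of VLDL assembly, 14 were fitted lower and 4 higher (median −0.18, 0 called). The apolipoprotein gene Apoc3 had 0.63 (SE 0.34, edgeR adjusted p = 0.642), and Tm6sf2, needed to load lipid onto VLDL, had 0.41 (SE 0.25, edgeR adjusted p = 0.664).

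The libraries held between 11591021 and 19653758 counts in KO and between 13866345 and 20399361 in WT livers, and the 10 genes took 0.416% to 0.564% of them in KO and 0.603% to 0.691% in WT livers. Trem2 itself had 9, 6 and 5 counts in the KO-labelled and 7, 26 and 26 in the WT-labelled libraries, so that WT replicate 1 was not separated from the KO libraries by it and every direction is between libraries as labelled. Mitochondrially encoded genes took 28.0%, 9.08% and 19.8% of counts in KO replicates 4, 5 and 6, against 8.16%, 12.7% and 10.2% in WT replicates 1, 2 and 3. Of 20 hepatocyte markers 16 were fitted lower, with a median of −0.57 and a summed level of 118200 to 130640 CPM in KO and 116610 to 159900 CPM in WT livers. Alb (log2 −0.20) was the highest of them in every library, followed by Apoa2 (log2 0.27) or Apoa1 (log2 −0.50). Apoa2 was above Apoa1 in all KO libraries and in WT replicate 2. All 14 macrophage and all 10 sinusoidal endothelial markers were fitted higher, with medians of 0.76 and 0.40 and sums of 291 to 348 and 240 to 328 CPM in KO, against 168 to 222 and 183 to 200 CPM in WT livers. Stellate cell and fibroblast markers had 7 of 10 fitted higher (221 to 467 CPM in KO, 188 to 204 CPM in WT), biliary markers 5 of 6 (58.7 to 77.6 and 40.6 to 80.0 CPM), lymphocyte markers 3 of 6 (7.09 to 16.0 and 7.10 to 14.7 CPM) and adipocyte markers 3 of 3 (143 to 215 and 22.9 to 93.3 CPM). No marker in these lists was called by edgeR. DESeq2 called 4 stellate and fibroblast markers higher, Col1a1, Col3a1, Col1a2 and Des (log2 2.38, 2.28, 1.94 and 1.91). It also called 2 markers of the adipocyte list higher, Cidec and Fabp4 (log2 2.72 and 1.46). Over all 13693 tested genes DESeq2 called 112 higher. The other stellate and fibroblast markers were not called. Among these Lrat, the defining stellate cell marker, had −0.03, Dcn −0.01, Colec11 −0.07, Reln 0.15, Pdgfrb 0.66 and Lum 0.88. None of the 8 kidney and intestine markers was tested, with summed levels under 1 CPM and Umod at 0 in all libraries. Of the 7 genes of the adipocyte list, only 3 were tested, Cidec, Fabp4 and Cfd. The untested Adipoq, Plin1, Lep and Retn had 125, 122, 64 and 32 counts in KO replicate 5 and 0 to 5 elsewhere. Cidec did not follow them, with 119, 74.9 and 85.7 CPM in KO replicates 4, 5 and 6. Fabp4 was highest in KO replicate 5, with 23.3, 45.2 and 19.8 CPM in the same order. Which cells the Cidec and Fabp4 reads came from was not tested. Fewer hepatocytes and less RNA per hepatocyte cannot be told apart in bulk tissue, and the part of these shifts in the carboxylesterase values was not tested. Without WT replicate 1 and KO replicate 4 together, the log2 fold change of Ces3b was −1.55, and with libraries scaled to the hepatocyte markers it was −1.35, or −1.74 relative to the median of all genes in that fit.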

How the data were processed

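Liver RNA of 6 libraries (3 KO, 3 WT, grouped by their titles) was made into TruSeq libraries, per the labels' protocols. Per the submitters' processing notes, mm10 was the build, and featureCounts 1.5.0-p3, HISAT2 2.0.5 and DESeq2 1.16.1 were used with settings that are not stated. The authors' deposited table of whole read counts was used for the fits, and the authors' deposited FPKM table for levels between genes; its library sizes (11166978 to 22275578) are not the count totals. No pair of libraries was a duplicate (lowest chi-square per degree of freedom 42.3).

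The 10 genes, the lists and the naming rule (per list the called genes, otherwise the 2 with the smallest p; all carboxylesterase genes; the 5 genes most like Ces3b) were chosen with earlier results of these data known. Of the genes this rule takes, 1 is not reported here. Counts were fitted with edgeR 4.0.16 in R 4.3.3 (TMM, filterByExpr, quasi-likelihood test, Benjamini-Hochberg adjustment at 0.05), after a check on simulated data. SE was obtained by dividing the log2 fold change by the square root of its F. Log2 CPM used a prior count of 2. Alternatives were DESeq2 1.42.0, limma 3.58.1 (voom, and log2 of FPKM plus 1), other scalings, no filter, and libraries left out. Transcripts came from GENCODE vM21 (GRCm38), whose gene positions match the count table, and promoters from RefSeq.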

Additional observations from a re-analysis of the deposited data

How the results depend on the processing

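Over 14 alternatives each, Ces3b stayed lower in KO, with log2 fold changes between −1.87 and −1.35, as did Ces3a (−0.69 to −0.09) and Ces2a (−0.80 to −0.20), and Ces1b stayed higher (0.04 to 0.66). The number of genes called in the whole table, 2, was 61 without a filter on low counts, 176 with DESeq2, 1 with limma-voom, and between 0 and 1 with 1 library left out. It was 0 without WT replicate 1 and KO replicate 4 together and 0 when scaled to the hepatocyte markers, both chosen after seeing the data. Ces3b was called in 2 of the 14, DESeq2 and the fit without a filter. Of the 10 genes, 9 were fitted lower, against 5 without those 2 libraries and 3 when scaled to the hepatocyte markers. Without those 2 libraries Ces1d, Ces1f, Ces1g and Ces2e turned to 0.30, 0.072, 0.23 and 0.62. Scaled to the hepatocyte markers, Ces1c, Ces1d, Ces1e, Ces1f, Ces1g and Ces2e turned to 0.10, 0.41, 0.25, 0.41, 0.19 and 0.33, where the median of all genes was 0.39. With 1 library left out, Ces1d ranged from −0.31 to 0.19, Ces1f from −0.17 to 0.082, Ces1g from −0.50 to 0.12 and Ces2e from −0.63 to 0.35, and the cause was not tested. The summed level differed by −0.42 (log2) in CPM per kb, against −0.47 in FPKM. The values of Ces4a, Ces2b, Ces2c, Ces2g and Onecut1 and the parts of the summed difference with 1 library left out were added after seeing the data. No paired analysis was possible because the replicate numbers are not shared between the groups.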
